A study of Mus musculus with 16 samples.

Results

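The comparison described here set mouse aortic smooth muscle cells, grown in primary culture from KO mice, in DIAM, a medium used to make them store lipid, against such cells in DMEM. Its members were chosen by the genotype and medium in their labels: 4 libraries of KO cells in DIAM and 4 of KO cells in DMEM, out of 16 libraries in the series. KO mice (RBC.ARG1-KO) carried floxed Arg1 alleles (ARG1 flox/flox) together with a Cre recombinase transgene under the erythropoietin receptor gene (ErCre tg), which removes the arginase Arg1 from the red blood cell lineage. Both groups compared here therefore shared the same genotype, the C57BL/6J strain and the label male. The 8 WT libraries (RBC.ARG1-WT littermates) also entered the filter on low counts, the scaling and the shared estimate of spread. Their own response served only to show where that of KO cells differed. The age of the mice, and whether each library came from a separate mouse, are not given in the sources used here. The p-values therefore rest on the spread between libraries within groups, estimated from all 16 libraries together, and not on a known spread between mice. The series text gives 4 biological replicates and the library protocol speaks of triplicates, and all 4 libraries of each group were used. DMEM cultures were kept in Dulbecco's modified Eagle medium with 10% fetal bovine serum. DIAM cultures had been given DMEM with 0.1 µM dexamethasone, 1 µM insulin and 50 µg/mL L-ascorbic acid for 10 days. The 3 additions came together, and the labels do not say whether DIAM had serum as well, so the effects of dexamethasone, insulin, ascorbic acid, serum and time in culture cannot be told apart.

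Dexamethasone is a synthetic glucocorticoid. It enters the cell, binds the glucocorticoid receptor, which is held by chaperones in the cytoplasm, and the complex moves to the nucleus and changes transcription at glucocorticoid response elements. Insulin acts through its receptor and the kinase AKT, which keeps FoxO transcription factors out of the nucleus and raises lipid synthesis through SREBP-1c, and glucocorticoid with insulin is the classical pair that turns preadipocytes into fat cells. Ascorbic acid is the cofactor of the prolyl and lysyl hydroxylases that let procollagen fold. Smooth muscle cells of the aorta are known for moving between a contractile state, rich in actin and myosin, and a matrix-producing, dividing state in culture, and in atherosclerosis some take up lipid.

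Short stretches of promoter are shown first because genes of the glucocorticoid and cell division lists, described further on, changed together. They come from RefSeq (build GRCm38.p6, not the GRCm39 build of the deposited values), lie on the strand of the gene and hold 30 bases on each side of a match, or fewer where the transcription start is closer. Capitals mark letters that match the glucocorticoid response element, an inverted repeat that reads alike on both strands:
Sgk1 (chr10:21993672-21993744, plus strand): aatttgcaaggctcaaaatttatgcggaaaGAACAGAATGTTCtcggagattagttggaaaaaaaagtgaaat
Mt1 (chr8:94178965-94179037, plus strand): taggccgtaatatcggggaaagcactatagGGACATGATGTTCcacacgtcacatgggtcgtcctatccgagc
Fam107a (chr14:8309855-8309927, minus strand): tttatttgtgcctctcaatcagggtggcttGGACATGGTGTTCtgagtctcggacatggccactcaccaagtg
In the next group Cdk1 and Top2a each hold a further match that is not shown. Capitals there mark TTTGAA or its reverse complement, the core of the cell cycle homology region found in promoters of many mitotic genes:
Cdc20 (chr4:118437344-118437391, minus strand): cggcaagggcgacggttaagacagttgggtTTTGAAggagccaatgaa
Cdk1 (chr10:69352948-69353013, minus strand): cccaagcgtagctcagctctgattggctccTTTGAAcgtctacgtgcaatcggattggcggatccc
Kif11 (chr19:37376333-37376381, plus strand): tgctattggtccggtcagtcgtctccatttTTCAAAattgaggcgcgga
Top2a (chr11:99024190-99024242, minus strand): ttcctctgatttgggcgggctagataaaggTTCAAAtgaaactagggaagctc

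The 250 bases before each listed start were searched on both strands for 4 motifs. The glucocorticoid response element was found in 4 of 40 promoters of the glucocorticoid list (25 of its 33 tested genes were matched), against 0.387% of all 32851 promoters and 0.314% of promoters of the genes tested. These 4 promoters belong to 3 genes, those shown above. TTTGAA was found in 12 of 43 promoters of the mitosis and replication list (39 of 49 genes matched), against 15.99% of all promoters and 10.7% of promoters of the genes tested. The sterol response element, present in 0.192% of all promoters, was not found in the 24 promoters of the cholesterol list, and the direct repeat bound by PPARG with RXRA, present in 0.033%, was not found in the 24 of the lipid droplet list. Both were searched as strict patterns that allow few variants. At such low shares no match is likely in so few promoters, so the absence tells nothing about these lists. None of the glucocorticoid element matches shown overlaps a TTTGAA match. A match is a description of these letters and not a bound site.

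The deposited values are estimated read counts. The 8 libraries held 37221313 to 42388720 counts, and 14217 genes with at least 1 CPM (counts relative to the library total, scaled between libraries by trimmed means) in at least 4 of the 16 libraries were tested with edgeR. Medium separated the libraries first: a principal component along which all DMEM libraries lay on one side and all DIAM libraries on the other held 84.95% of the variance of the 8, and the next held 4.72%. Mitochondrially encoded RNA made up 1.52% to 1.63% of counts in DMEM and 1.89% to 2.05% in DIAM. Of 14217 genes, 60.7% changed at an adjusted p under 0.05: 29.8% rose and 30.8% fell, and the median log2 fold change of all genes was -0.02. A count in a gene list below is to be read against these shares. Every gene said to rise or fall passed this test, levels are TMM-scaled CPM given per library in the order of the replicate numbers or as mean ± SD of 4 libraries, and log2 fold changes carry their SE. The genes named follow a rule given with the processing, and 20 genes that it does not reach were chosen after their values were seen and are listed there. In 55.1% of all genes the 4 DIAM values lay all above or all below the 4 DMEM values. Among all genes 17.1% both passed and differed by 1 or more on the log2 scale, 1314 of them higher in DIAM and 1118 lower. At 3 or more on the log2 scale, 302 rose and 97 fell. Xist, the RNA that silences an X chromosome in female cells, was present in every library although all carry the label male, with 126, 326, 204 and 239 CPM in the 4 DMEM libraries and 114, 102, 113 and 122 CPM in the 4 DIAM libraries. Y-linked genes were not analysed here.

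**Figure D1:**
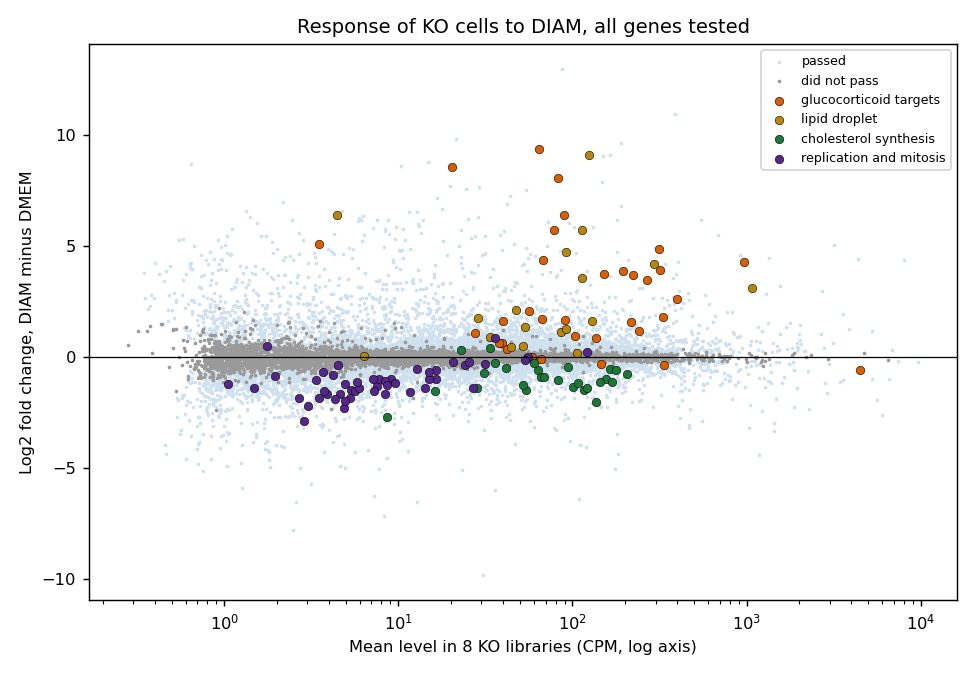
Log2 fold change of DIAM against DMEM in KO cells (vertical axis) against mean level over the 8 KO libraries (CPM, log axis) for the 14217 genes tested. Grey points are genes that did not pass, light points genes that passed at an adjusted p under 0.05, and coloured points are members of 4 gene lists. Glucocorticoid and lipid droplet genes lie mostly above 0, cholesterol and mitosis genes below.

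Smooth muscle RNA in the cultures was looked at with 10 markers, all of which passed the filter on low counts. All 12 endothelial, 12 fibroblast and 8 mesothelial markers passed it too, so passing does not check the identity of the cells. The summed level of the smooth muscle markers was 2757 to 4729 CPM in DMEM and 1517 to 2613 CPM in DIAM. Of the 10 markers 5 fell, 2 rose and 3 did not pass, and all were present in both media. The targeted gene Arg1 lay below the filter, with 12, 22, 2 and 49 counts in the DMEM libraries and 3, 4, 2 and 1 in the DIAM libraries, and Epor, whose regulatory region drives the Cre, had 4 to 17 and 4 to 20 counts. Smooth muscle is not where this Cre acts, so these counts do not check the genotype.

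Targets of the glucocorticoid receptor mostly rose. Of 33 tested genes of this list, 28 rose and 3 fell, with a median log2 fold change of 1.82, against 29.8%, 30.8% and -0.02 over all genes. Fkbp5, a chaperone that holds back the receptor and is itself induced by it, had 20.6, 19.8, 23.2 and 20.3 CPM in DMEM libraries 1 to 4 and 602, 631, 584 and 606 CPM in DIAM libraries 1 to 4 (log2 fold change 4.85 ± 0.08, adjusted p = 9.33e-16, edgeR). Tsc22d3 (GILZ), a mediator of anti-inflammatory glucocorticoid action, had 26.9, 21.4, 27.3 and 23 CPM in DMEM and 344, 372, 385 and 360.0 CPM in DIAM (log2 fold change 3.89 ± 0.09). Sgk1, the kinase whose promoter is shown above, had 34.5, 32.4, 27.3 and 35.4 CPM in DMEM and 443, 402, 419 and 399 CPM in DIAM (log2 fold change 3.68 ± 0.08). In these genes all DIAM libraries lay above all DMEM libraries, and the libraries of one medium lay close together. Zbtb16 (PLZF), a transcription factor, rose from 0.191 ± 0.146 to 129 ± 3.42 CPM, and Fam107a, an actin-binding protein, from 0.105 ± 0.0909 to 40.8 ± 10.3 CPM. Mt1 and Mt2, metallothioneins that bind zinc and copper, rose from 146 ± 19.7 to 513 ± 57.1 CPM and from 111 ± 27.9 to 682 ± 63.7 CPM. Sult1a1, a sulfotransferase, rose from 2.08 ± 0.414 to 177 ± 9.39 CPM. The receptor itself, Nr3c1, fell from 161 ± 10.1 to 129 ± 5.75 CPM, and Hsd11b1, the enzyme that regenerates active glucocorticoid, rose from 31.2 ± 4.84 to 102 ± 7.39 CPM. Members that fell included Cdkn1a, the CDK inhibitor p21, from 377 ± 22 to 289.5 ± 18.9 CPM, and Lox, which crosslinks collagen and elastin, from 5358 ± 338 to 3607 ± 222 CPM. Ncoa3, a coactivator, did not pass (67.3 ± 8.42 CPM in DMEM and 63.9 ± 7.14 CPM in DIAM).

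Most Krüppel-like factors rose, and clock genes went both ways. Of 13 Krüppel-like factors 11 rose and 1 fell (median log2 fold change 0.92). Klf15, a factor of amino acid and lipid metabolism, had 15.2, 17.8, 17.2 and 19.4 CPM in DMEM and 98.5, 104, 107 and 86.4 CPM in DIAM (log2 fold change 2.51 ± 0.10), and Klf13 had 55.6, 61.9, 53.4 and 47.7 CPM in DMEM and 227, 244, 236 and 249.9 CPM in DIAM (log2 fold change 2.13 ± 0.10). Neither gene overlapped between media. Klf9, a known glucocorticoid target, rose from 108 ± 5.45 to 324 ± 11.7 CPM, and Klf4, a repressor of contractile genes, from 50.2 ± 3 to 147 ± 6.56 CPM. Klf16 fell from 20.1 ± 0.794 to 13.5 ± 1.33 CPM, and Klf2 did not pass (9.68 ± 1.34 CPM in DMEM and 8.39 ± 0.76 CPM in DIAM). Of 21 clock genes 10 rose, 6 fell and 5 did not pass. Per1, a repressor of the clock that glucocorticoid induces, had 18.2, 23.8, 21 and 23.7 CPM in DMEM and 98.9, 88.7, 86.6 and 90.7 CPM in DIAM (log2 fold change 2.07 ± 0.10), and Cry2, another repressor, rose from 19.8 ± 1.6 to 56.6 ± 1.51 CPM. Dbp, an output gene of the clock, fell from 39.4 ± 1.03 to 12.5 ± 0.447 CPM. Bhlhe40 fell from 78.7 ± 8.58 to 37.3 ± 2.29 CPM and Nr1d2 (REV-ERB beta) from 82.1 ± 1.93 to 43.5 ± 2.88 CPM. Rora, an activating receptor of the clock, did not pass (54.7 ± 2.29 CPM in DMEM and 61.3 ± 2.57 CPM in DIAM). The labels do not give the time of harvest, and its part in these values was not tested.

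Most insulin signalling genes changed, and they did so in both directions. Of 33 genes from receptor to FoxO 18 rose and 10 fell (median 0.30). Slc2a4 (GLUT4), the insulin-responsive glucose transporter, had 2.07, 0.698, 1.27 and 1.65 CPM in DMEM and 70.3, 62.3, 51.1 and 63.2 CPM in DIAM (log2 fold change 5.44 ± 0.33), without overlap. Foxo3, one of the factors that AKT keeps out of the nucleus, rose from 70.1 ± 2.33 to 136 ± 8.95 CPM. Sesn3, a stress protein controlled by FoxO, fell from 208 ± 17.2 to 56.9 ± 7.86 CPM, and Trib3, an inhibitor of AKT, from 38.6 ± 6.59 to 10.9 ± 0.514 CPM. Grb10, an adaptor that dampens the receptor, did not pass (301 ± 20.1 CPM in DMEM and 292 ± 21 CPM in DIAM). At the receptor, Insr rose from 40.6 ± 0.713 to 92.5 ± 5.82 CPM and its substrate Irs2 from 38.8 ± 3 to 69.1 ± 4.39 CPM, while the substrate Irs1 fell from 49.4 ± 10.7 to 23.8 ± 1.09 CPM. Of 18 IGF genes 7 rose and 4 fell. Igfbp2, a binding protein, had 1233, 753, 1249 and 669 CPM in DMEM and 139.6, 135, 139 and 107 CPM in DIAM (log2 fold change -2.91 ± 0.25). Igf1, the ligand, fell from 68.9 ± 11.7 to 21.4 ± 1.51 CPM, and Pappa, the protease that frees it, from 129 ± 14.9 to 56.1 ± 6.59 CPM. Igfbp6 rose from 102 ± 23.9 to 598 ± 26.4 CPM. Igfbp4 did not pass, and the 95% interval of its change was -0.41 to 0.01 on the log2(CPM + 1) scale (limma).

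**Figure D2:**
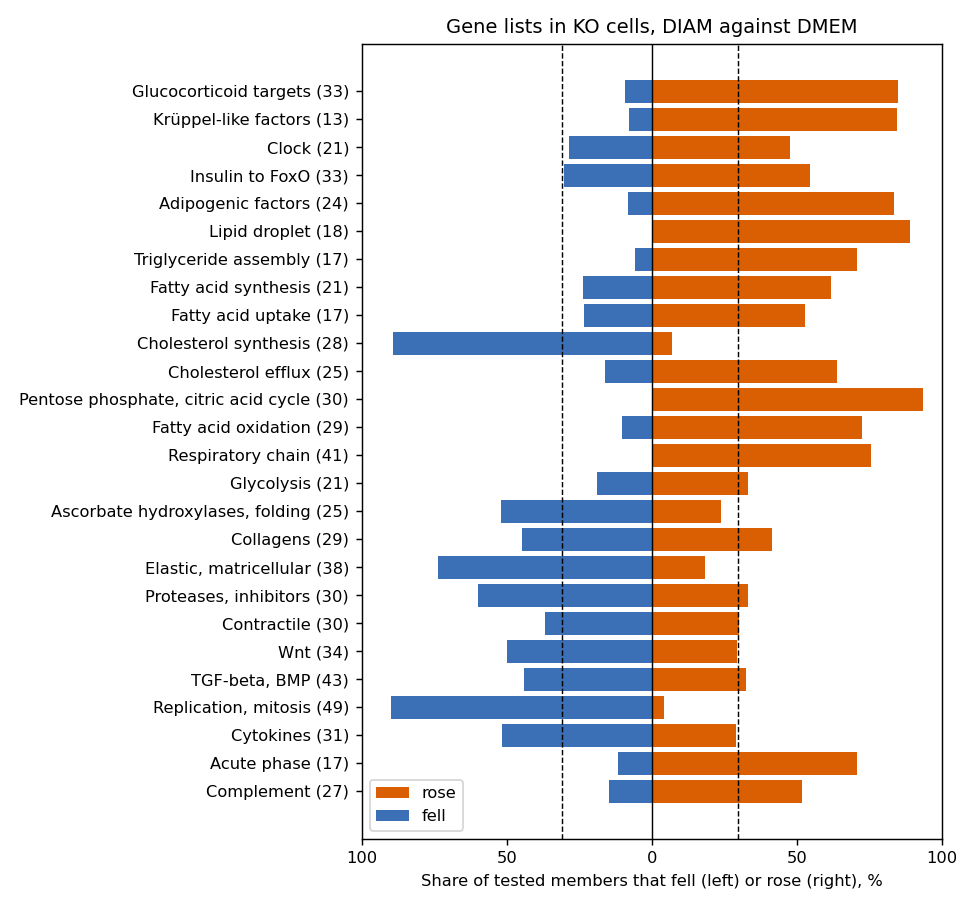
Share of the tested members of each gene list that rose (right) or fell (left) in DIAM at an adjusted p under 0.05, in percent, with the number of tested members beside each name. Dashed lines mark the shares over all 14217 genes, 29.8% risen and 30.8% fallen. Lists of lipid storage and of the pentose phosphate pathway with the citric acid cycle lie to the right, and cholesterol synthesis and mitosis to the left.

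Genes of lipid storage rose, from transcription factors to droplet coat proteins. Of 24 adipogenic factors 20 rose and 2 fell (median 1.21, or 0.80 by limma on log2(CPM + 5)). Pparg, the master regulator of fat cells, had 13.8, 10.2, 14.1 and 15 CPM in DMEM and 82, 80.9, 60.6 and 79.6 CPM in DIAM (log2 fold change 2.51 ± 0.18), and Cebpa, its partner, 67.7, 47.4, 65.7 and 71.6 CPM in DMEM and 378, 394, 295 and 369.9 CPM in DIAM (log2 fold change 2.51 ± 0.19). In both genes the media did not overlap. Ebf1, an early factor of the lineage, rose from 67.7 ± 5.1 to 196 ± 11.6 CPM, and Nr1h3, the liver X receptor alpha, from 7.13 ± 0.837 to 31.4 ± 2.68 CPM. The members that fell were Zfp467, from 10.7 ± 2.09 to 7.26 ± 1.14 CPM, and Wwtr1 (TAZ), from 209.7 ± 16.9 to 163 ± 8.17 CPM. Cebpb, which acts early in fat cell formation, did not pass (59.2 ± 4.12 CPM in DMEM and 58.2 ± 3.39 CPM in DIAM). Of 17 genes of triglyceride assembly 12 rose and 1 fell (median 0.75). Gpd1, which makes the glycerol 3-phosphate backbone, had 1.07, 0.983, 1.03 and 1.94 CPM in DMEM and 344, 344, 239.6 and 257 CPM in DIAM (log2 fold change 7.87 ± 0.34). Agpat2, an acyltransferase, rose from 24.6 ± 1.56 to 186 ± 26.8 CPM, and Dgat2 and Dgat1, which add the last fatty acid, from 4.35 ± 0.78 to 138 ± 26.2 CPM and from 18.7 ± 0.869 to 57.1 ± 6.81 CPM. Pcx, pyruvate carboxylase, rose from 35.5 ± 2.56 to 648 ± 98.5 CPM. Lpin2, a phosphatidate phosphatase, fell from 28.1 ± 3.29 to 18.9 ± 1.8 CPM. Agpat1 did not pass (76.1 ± 4.53 CPM in DMEM and 77.7 ± 3.42 CPM in DIAM).

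Of 18 lipid droplet and lipolysis genes 16 rose and none fell (median 1.70). Pnpla2 (ATGL), the first lipase of lipolysis, had 30.6, 28.6, 30.2 and 31.7 CPM in DMEM and 619, 601, 454 and 544 CPM in DIAM (log2 fold change 4.19 ± 0.17), and Lipe, hormone-sensitive lipase, 5.87, 6.46, 6.54 and 7.78 CPM in DMEM and 194, 189, 141 and 189 CPM in DIAM (log2 fold change 4.74 ± 0.24). Plin1, the coat protein that guards fat cell droplets, had 3.72, 2.35, 4.49 and 5.94 CPM in DMEM and 250.1, 244, 168 and 224 CPM in DIAM (log2 fold change 5.74 ± 0.30). Coat protein and lipases thus rose side by side. Abhd5, the coactivator of ATGL, rose from 63.5 ± 4.5 to 197 ± 19.8 CPM, and Bscl2 (seipin), which shapes nascent droplets, from 54.7 ± 3.27 to 129 ± 6.88 CPM. Cidec, which fuses droplets, rose from 0.442 ± 0.321 to 248 ± 43.3 CPM. Plin3, a widely expressed coat protein, did not pass (100.4 ± 4.78 CPM in DMEM and 112 ± 7.28 CPM in DIAM). In the fatty acid synthesis list of 21 genes, 13 rose and 5 fell (median 0.34). Fasn, fatty acid synthase, had 287, 292, 325 and 298 CPM in DMEM and 2968, 3257, 2359 and 2618 CPM in DIAM (log2 fold change 3.22 ± 0.24). Scd1, a desaturase that makes oleate, had 342, 370.0, 403 and 459 CPM in DMEM and 8802, 9409.6, 6883 and 8463 CPM in DIAM (log2 fold change 4.41 ± 0.17). Thrsp (Spot 14), a lipogenic protein, rose from 0.46 ± 0.319 to 382 ± 84.4 CPM. Fads1, which desaturates long polyunsaturated chains, fell from 259.8 ± 14.2 to 148 ± 6.58 CPM, and Insig1, which retains SREBP in the endoplasmic reticulum, from 230.0 ± 36.2 to 106 ± 6.38 CPM. Scd2 did not pass (1130.3 ± 74.6 CPM in DMEM and 1131 ± 98 CPM in DIAM), with an interval of -0.17 to 0.16 on the log2(CPM + 1) scale (limma). Of 17 uptake genes 9 rose and 4 fell. Cd36, a fatty acid translocase, had 13.8, 10.4, 10.6 and 16.8 CPM in DMEM and 380.4, 372, 280.2 and 354 CPM in DIAM (log2 fold change 4.75 ± 0.25). Fabp4, the binding protein of fat cells and macrophages, rose from 73.1 ± 15.6 to 1756 ± 296 CPM, whereas Fabp3 fell from 10.2 ± 1.35 to 2.2 ± 0.266 CPM and the synthetase Acsl3 from 35.8 ± 2.87 to 11.9 ± 0.967 CPM. Of 12 adipokine and receptor genes 9 rose and 1 fell. Adipoq, adiponectin, had 4.74, 2.59, 3.88 and 6.7 CPM in DMEM and 286, 272, 206 and 262 CPM in DIAM (log2 fold change 5.83 ± 0.28), and Cfd, adipsin, 3.48, 1.68, 2.56 and 5.84 CPM in DMEM and 414, 387, 299 and 415 CPM in DIAM (log2 fold change 6.80 ± 0.32). Nampt, which makes a precursor of NAD, rose from 79.2 ± 7.27 to 501 ± 21.6 CPM. Adipor1 did not pass (224 ± 15.2 CPM in DMEM and 244 ± 14.7 CPM in DIAM).

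**Figure D3:**
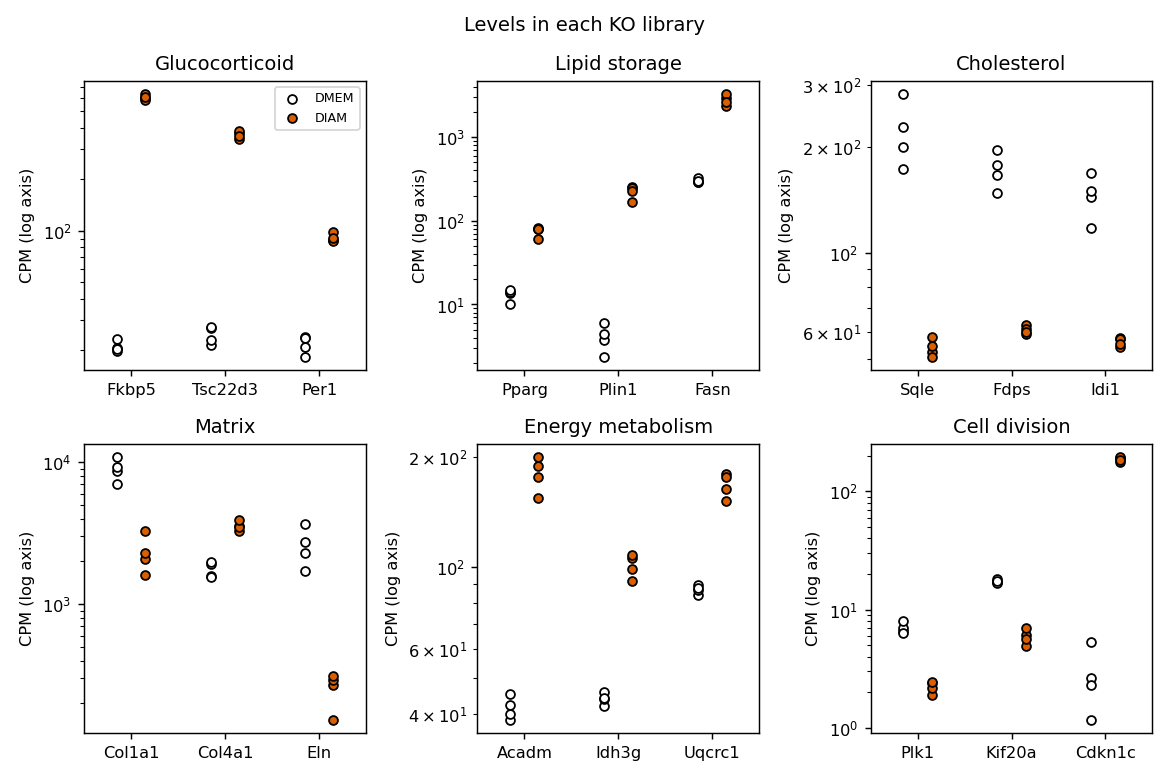
Level of 18 genes in each of the 8 KO libraries (CPM, log axis), 3 genes to a panel, with DMEM libraries as open and DIAM libraries as filled points. Only genes were drawn in which the 4 filled points lie all above or all below the 4 open points, as they do in 55.1% of all genes tested.

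Cholesterol synthesis moved the other way. Of 28 genes of synthesis, uptake and their control, 25 fell and 2 rose (median -0.96). Sqle, squalene epoxidase, had 227, 173, 282 and 199 CPM in DMEM and 57.9, 52.4, 54.6 and 50.8 CPM in DIAM (log2 fold change -2.03 ± 0.12), and Fdps, which makes farnesyl pyrophosphate, 166, 148, 196 and 178 CPM in DMEM and 62.7, 61.2, 58.9 and 59.6 CPM in DIAM (log2 fold change -1.51 ± 0.08). No library of one medium reached the other. Idi1 fell from 145 ± 21.3 to 56 ± 1.56 CPM, Msmo1 from 175 ± 20.3 to 67.4 ± 2.69 CPM and Sc5d from 199 ± 16.3 to 90.2 ± 5.39 CPM. The members that rose were Dhcr7, from 29 ± 4.4 to 38.3 ± 5 CPM, and Pmvk, from 20.6 ± 2.36 to 25.4 ± 2.96 CPM, whose call was lost without DMEM replicate 2, DIAM replicate 1 or DIAM replicate 4. Ggps1 did not pass (55.7 ± 4.78 CPM in DMEM and 54.3 ± 1.63 CPM in DIAM). Of 25 efflux and cholesterol handling genes 16 rose and 4 fell. Abca8a and Abca8b, ABC transporters, rose from 9.33 ± 3.6 to 124 ± 9.83 CPM and from 6.06 ± 1.39 to 42.7 ± 2.89 CPM, and Apoc1, an apolipoprotein, from 0.422 ± 0.153 to 25.9 ± 3.6 CPM. Abca1, the exporter that loads HDL, rose from 95 ± 9.2 to 222 ± 16.8 CPM. Mylip, a ubiquitin ligase induced by liver X receptors, fell from 73.4 ± 8.94 to 30.5 ± 2.39 CPM, and Ch25h, which makes 25-hydroxycholesterol, from 16 ± 5.33 to 2.75 ± 0.762 CPM. Of 16 scavenger receptor and foam cell genes 6 rose and 2 fell. Mertk, a receptor for dying cells, rose from 11.6 ± 1.27 to 51.5 ± 2.98 CPM, and Trem2, a receptor of lipid-laden macrophages, fell from 22.7 ± 5.52 to 13.8 ± 1.32 CPM. This count of 8 changed genes was 5 without DMEM replicate 4, or without DIAM replicate 2, 3 or 4.

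Genes of mitochondrial oxidation and of the pentose phosphate pathway mostly rose. Of 30 genes of the pentose phosphate pathway, pyruvate entry and the citric acid cycle 28 rose and none fell (median 0.76). Idh3g, a subunit of isocitrate dehydrogenase, had 42, 45.7, 43.8 and 44.1 CPM in DMEM and 106, 108, 91.7 and 99.3 CPM in DIAM (log2 fold change 1.21 ± 0.08), and Ogdh, 2-oxoglutarate dehydrogenase, 151, 144, 159 and 142 CPM in DMEM and 299, 304, 263.5 and 274 CPM in DIAM (log2 fold change 0.94 ± 0.06). Mdh1, the cytosolic malate dehydrogenase, rose from 110.1 ± 3.65 to 270.4 ± 24.5 CPM, and G6pdx, the first enzyme of the pentose phosphate pathway, from 79 ± 6.33 to 222 ± 11.5 CPM. Pgls did not pass (44 ± 1.81 CPM in DMEM and 45.8 ± 0.733 CPM in DIAM). In the fatty acid oxidation list of 29 genes, 21 rose and 3 fell (median 0.72). Acadm, medium-chain acyl-CoA dehydrogenase, had 38.5, 40.0, 45.2 and 42.4 CPM in DMEM and 199.8, 189, 154 and 176 CPM in DIAM (log2 fold change 2.11 ± 0.10). Acaa2, a thiolase, rose from 21.5 ± 2.59 to 92.3 ± 8.26 CPM, Hadhb from 76.9 ± 2.42 to 162 ± 17.4 CPM and Pdk4, the kinase that holds back pyruvate oxidation, from 21.1 ± 3.6 to 281 ± 9.84 CPM. Cpt1c fell from 62.5 ± 4.64 to 34.4 ± 1.72 CPM, and Cpt1a, the usual entry step, did not pass (81.1 ± 1.88 CPM in DMEM and 74.5 ± 4.56 CPM in DIAM). Of 41 nuclear-encoded respiratory chain genes 31 rose and none fell (median 0.47). Uqcrc1 of complex III had 89.7, 83.9, 86.6 and 87.9 CPM in DMEM and 179.5, 176, 151 and 163 CPM in DIAM (log2 fold change 0.94 ± 0.06), and Ndufs1 of complex I rose from 67.4 ± 0.733 to 124 ± 11.1 CPM. Cox6c did not pass (97.2 ± 10.5 CPM in DMEM and 104 ± 7.5 CPM in DIAM). Of the 13 mitochondrially encoded mRNAs 9 rose and mt-Nd6 fell, from 7.64 ± 1.86 to 4.34 ± 0.933 CPM; the kit did not keep strand, and this gene lies opposite the others. Of 21 glycolysis genes 7 rose, 4 fell and 10 did not pass (median -0.01). Hk2, hexokinase, rose from 30.02 ± 2.9 to 65.8 ± 5.01 CPM, and Pfkp from 33.4 ± 4.38 to 68.5 ± 2.72 CPM. Slc16a3 (MCT4), a lactate exporter, fell from 40.5 ± 4.98 to 7.86 ± 1.1 CPM, and Gapdh did not pass (1150.0 ± 74 CPM in DMEM and 1147 ± 71.1 CPM in DIAM).

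**Figure D4:**
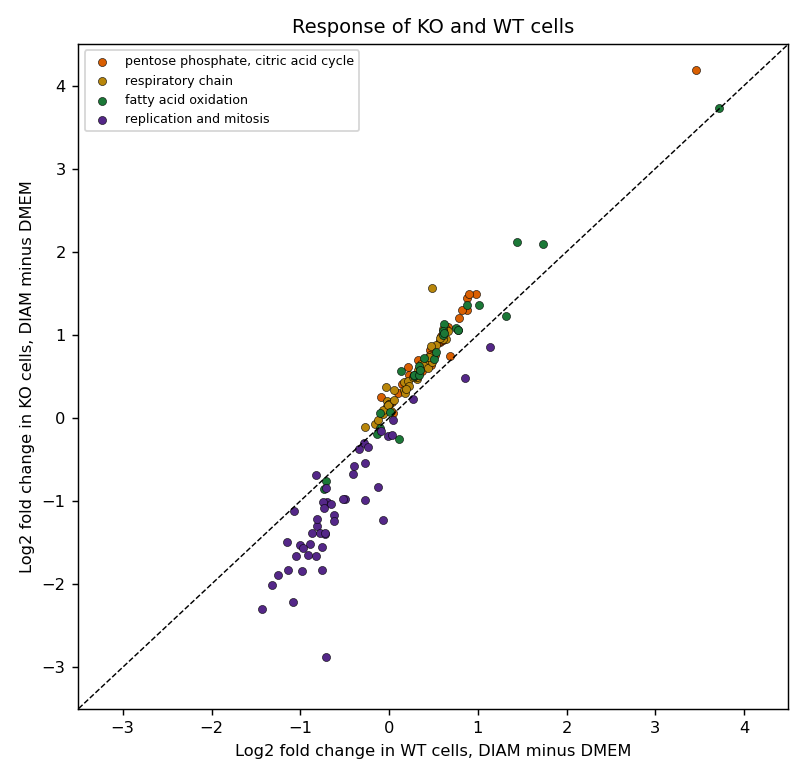
Log2 fold change of DIAM against DMEM in KO cells (vertical axis) and in WT cells (horizontal axis) for genes of 4 lists, 1 point per gene. The dashed line marks equal change. All points of the pentose phosphate and citric acid cycle list and of the respiratory chain list lie above the line. Of the mitosis list, 48 of 49 points lie below it.

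Redox, metal and stress genes gave mixed counts. Of 30 antioxidant genes 19 rose and 6 fell. Prdx6, a peroxiredoxin that repairs phospholipids, had 122, 113, 122 and 113 CPM in DMEM and 641, 580.3, 592 and 575 CPM in DIAM (log2 fold change 2.34 ± 0.06), and Gstm1, a glutathione transferase, rose from 70.8 ± 7.74 to 312 ± 29.8 CPM. Sod3, extracellular superoxide dismutase, fell from 1062 ± 177 to 519 ± 56.2 CPM. Of 20 metallothionein, heme and iron genes 15 rose and 1 fell, among them Fth1, ferritin heavy chain, from 2289 ± 152 to 5504 ± 241 CPM, and Ppox, an enzyme of heme synthesis, from 17.5 ± 2.07 to 12.4 ± 1.15 CPM. Of 23 genes of the integrated stress response and serine synthesis 6 rose and 10 fell. Ddit3 (CHOP) fell from 54.5 ± 4.25 to 28.3 ± 1.62 CPM, Gdf15, a stress hormone, from 15 ± 2.42 to 6.22 ± 0.857 CPM, and Cbs, cystathionine beta-synthase, rose from 1.28 ± 0.165 to 13.7 ± 1.72 CPM. Of 23 chaperones and endoplasmic reticulum stress genes 6 rose and 12 fell. Hspa8, a chaperone of the cytosol, rose from 1643 ± 44 to 2480.2 ± 154 CPM, and Xbp1, a factor of the unfolded protein response, from 121 ± 3.52 to 174 ± 8.02 CPM. Canx, calnexin of the endoplasmic reticulum, fell from 693 ± 21.7 to 509 ± 10.1 CPM, and Hyou1 from 222 ± 4.84 to 165 ± 5.61 CPM. Of 25 tested arginine and polyamine genes 13 fell and 6 rose. Odc1, the first enzyme of polyamine synthesis, fell from 194 ± 20.5 to 111 ± 6.42 CPM, Aldh18a1, of proline synthesis, from 92.7 ± 3.63 to 49 ± 2 CPM, and Ddah1, which clears methylarginines, from 245 ± 19.7 to 84.6 ± 3.83 CPM. Paox, a polyamine oxidase, rose from 7.77 ± 1.51 to 15.7 ± 1.53 CPM, and Sat1 did not pass (121 ± 8.28 CPM in DMEM and 116 ± 3.43 CPM in DIAM).

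Collagen genes split by type. Of 29 chains 12 rose and 13 fell, with a median log2 fold change of 0.09, or -0.71 with only genes at 5 CPM or more in 4 libraries. Col1a1, a chain of the main fibrillar collagen, had 7031, 10935, 8717 and 9246 CPM in DMEM and 1599.8, 2085, 2292 and 3257 CPM in DIAM (log2 fold change -1.96 ± 0.20), and Col5a2 3426, 4305, 3506 and 3893 CPM in DMEM and 594, 679, 743 and 995 CPM in DIAM (log2 fold change -2.33 ± 0.14). Col3a1 fell from 4701 ± 1487 to 2167 ± 493 CPM, Col1a2 from 6955 ± 1124 to 3525 ± 739.5 CPM, Col8a1 from 3089 ± 232 to 643 ± 73.3 CPM and Col12a1 from 2827 ± 121 to 1057 ± 129 CPM. Col4a1, of the basement membrane, had 1580.1, 1925, 1984 and 1563 CPM in DMEM and 3271, 3582, 3482 and 3906 CPM in DIAM (log2 fold change 1.01 ± 0.11), and Col4a2 rose from 1497 ± 203 to 2569 ± 139 CPM. Col6a1 and Col6a3, of beaded filaments, rose from 519 ± 64.2 to 808 ± 116 CPM and from 305 ± 80.3 to 496 ± 157 CPM (the latter call was lost without DIAM replicate 4), while Col6a2 did not pass (379 ± 48.5 CPM in DMEM and 481 ± 98.8 CPM in DIAM). Of 25 hydroxylases that use ascorbate, collagen folding partners and related dioxygenases 13 fell and 6 rose (median -0.37). Plod2, a lysyl hydroxylase, had 838, 808, 985 and 707 CPM in DMEM and 294, 306, 339 and 244 CPM in DIAM (log2 fold change -1.50 ± 0.12). Serpinh1 (HSP47), the collagen chaperone, fell from 1865 ± 60.0 to 858 ± 50.6 CPM, and Fkbp10 and P3h1, partners in procollagen folding, from 256 ± 15 to 133 ± 12 CPM and from 133.5 ± 10.8 to 74 ± 7.35 CPM. Egln3, an oxygen-sensing prolyl hydroxylase of HIF, rose from 5.79 ± 0.969 to 16 ± 2.35 CPM. Plod3 did not pass (310.4 ± 14.6 CPM in DMEM and 303 ± 4.78 CPM in DIAM).

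**Figure D5:**
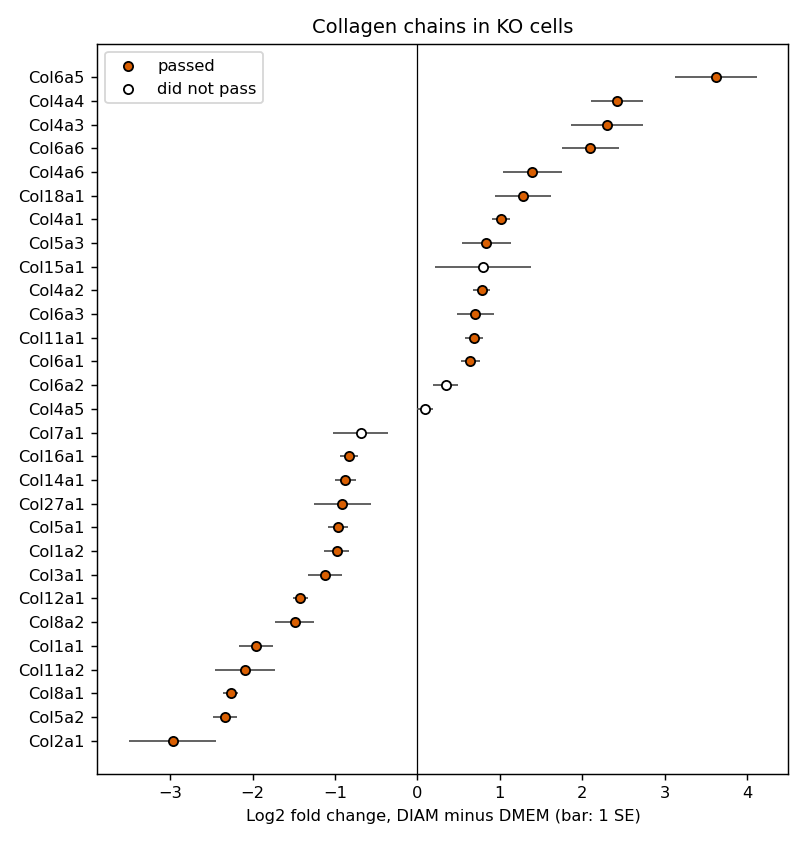
Log2 fold change of DIAM against DMEM in KO cells for the 29 collagen chains tested, with bars of 1 SE. Filled points passed at an adjusted p under 0.05. All chains of types I, III, VIII and XII lie below 0, and all of types IV and VI above it.

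Elastic fibre and matricellular genes were mostly lower. Of 38 genes 28 fell and 7 rose (median -0.75). Eln, elastin, had 2277, 2757, 3672 and 1699 CPM in DMEM and 153, 269, 289.8 and 313 CPM in DIAM (log2 fold change -3.34 ± 0.24), and Ccn3, a matricellular protein, 2050.1, 2276, 2107 and 2592 CPM in DMEM and 91.5, 103, 116 and 112 CPM in DIAM (log2 fold change -4.42 ± 0.13). Every DMEM library lay more than 5-fold above every DIAM library in both genes. Thbs2 fell from 1856 ± 177 to 201 ± 45.5 CPM, whereas Efemp1 rose from 112 ± 27.7 to 659.6 ± 61.6 CPM and Matn2 from 12.4 ± 2.98 to 56.5 ± 6.9 CPM. Postn, periostin, did not pass (1362 ± 223 CPM in DMEM and 1185 ± 255 CPM in DIAM). Of 12 proteoglycans 7 fell and 3 rose. Fmod and Lum, which bind collagen fibrils, fell from 497 ± 57.3 to 152 ± 3.42 CPM and from 160.3 ± 6.85 to 44.2 ± 5.98 CPM, and Omd rose from 5.59 ± 1.47 to 25 ± 6.76 CPM. Of 30 proteases and inhibitors 18 fell and 10 rose. Mmp13, a collagenase, had 44.6, 134, 31.2 and 71.8 CPM in DMEM and 0.776, 0.778, 1.21 and 1.61 CPM in DIAM (log2 fold change -6.01 ± 0.80). Timp3 fell from 2335 ± 283 to 625 ± 60.5 CPM, whereas Timp4 rose from 0.609 ± 0.315 to 164 ± 13.1 CPM and Adamts1, which cuts versican, from 305 ± 38.2 to 1247 ± 42.5 CPM. Of 30 contractile genes 11 fell, 9 rose and 10 did not pass (median -0.09). Acta2, smooth muscle actin, had 2207, 1399.8, 2320.2 and 1268 CPM in DMEM and 811, 921, 1095 and 553 CPM in DIAM (log2 fold change -1.09 ± 0.23). Tpm1, tropomyosin, fell from 659 ± 66.5 to 356 ± 38.8 CPM, Tpm4 from 1094 ± 102 to 703 ± 56.9 CPM and Cald1, caldesmon, from 2136 ± 299.7 to 1151 ± 109.6 CPM. Myh11, smooth muscle myosin heavy chain, had 133, 89, 116 and 70.4 CPM in DMEM and 169, 183, 187 and 92.5 CPM in DIAM (log2 fold change 0.63 ± 0.28); the groups overlapped and it did not pass. Vcl, vinculin, did not pass (628 ± 73.9 CPM in DMEM and 626 ± 13.4 CPM in DIAM). Of 37 genes of cyclic GMP signalling, RGS proteins, potassium channels and vasoactive receptors 16 fell and 8 rose. Rgs2, which restrains vasoconstrictor receptors, rose from 9.43 ± 1.1 to 47.4 ± 6.44 CPM, and Rgs5, a marker of mural cells, fell from 2056 ± 807 to 385 ± 106 CPM. Npr3 did not pass (540.0 ± 82.9 CPM in DMEM and 637 ± 31.2 CPM in DIAM).

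Genes of signals between cells went both ways, with shares changed that are to be read against 60.7% of all genes. Of 34 Wnt genes 17 fell and 10 rose. Sfrp1, a secreted antagonist, had 4356, 4199.9, 3186 and 5781 CPM in DMEM and 1364, 1329, 1356 and 1564 CPM in DIAM (log2 fold change -1.64 ± 0.13), and Sfrp4 196, 261, 263 and 142 CPM in DMEM and 2.33, 2.14, 3.01 and 2.68 CPM in DIAM (log2 fold change -6.41 ± 0.26). Rspo3, an agonist, fell from 142 ± 14.4 to 15.5 ± 1.12 CPM, and Wnt16 from 16.4 ± 3.11 to 0.7 ± 0.212 CPM, while Axin2, a target of the pathway, rose from 1.26 ± 0.224 to 8.06 ± 2.75 CPM. Of 43 TGF-beta and BMP genes 19 fell and 14 rose. Grem1, a BMP antagonist, had 802, 538, 667 and 865 CPM in DMEM and 132, 97.6, 114 and 89.5 CPM in DIAM (log2 fold change -2.73 ± 0.16). Gdf6 fell from 56.9 ± 13.1 to 10.8 ± 1.93 CPM and Smad3 from 68 ± 2.29 to 21 ± 1.01 CPM, and Chrdl1, another BMP antagonist, rose from 5.54 ± 1.34 to 96.6 ± 20.8 CPM. Of 35 growth factor genes 16 fell and 9 rose. Ntf3, a neurotrophin, fell from 12.3 ± 2.69 to 2.37 ± 0.545 CPM, and Kitl, stem cell factor, rose from 22.9 ± 2.21 to 64.7 ± 5.45 CPM. Of 18 Notch genes 6 rose and 6 fell, with Notch1 rising from 17 ± 2.23 to 33.4 ± 5.23 CPM and Hes1, a target, falling from 20.1 ± 1.9 to 12.2 ± 0.32 CPM. Of 22 osteochondrogenic genes 12 fell and 6 rose. Sost, sclerostin, fell from 16.4 ± 10.8 to 0.108 ± 0.0427 CPM, and Tnfrsf11b, osteoprotegerin, from 225 ± 62.5 to 13.4 ± 3.57 CPM, while Bmp2 rose from 2.53 ± 0.276 to 6.85 ± 0.791 CPM. Spp1, osteopontin, had 1039, 2828, 649.9 and 1633 CPM in DMEM and 769, 690.3, 797 and 971.5 CPM in DIAM (log2 fold change -0.93 ± 0.38); its groups overlapped, and its call (adjusted p = 0.048, edgeR) was lost in 13 of 18 alternatives.

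Cell division genes fell. Of 49 genes of replication and mitosis 44 fell and 2 rose (median -1.16, or -0.60 by limma on log2(CPM + 5)). Plk1, a mitotic kinase, had 6.63, 7.03, 8.06 and 6.3 CPM in DMEM and 1.89, 2.38, 2.19 and 2.47 CPM in DIAM (log2 fold change -1.65 ± 0.13), and Kif20a, a kinesin, 17.1, 16.9, 18.3 and 17.3 CPM in DMEM and 4.91, 6.05, 5.62 and 6.96 CPM in DIAM (log2 fold change -1.56 ± 0.13). Top2a and Kif11, whose promoters are shown above, fell from 38.9 ± 3.94 to 14.9 ± 1.92 CPM and from 8.21 ± 0.583 to 2.29 ± 0.224 CPM. The members that rose were Rrm2, from 25.7 ± 3.2 to 46.4 ± 6.92 CPM, and Rrm1, from 111 ± 10.2 to 129.8 ± 9.8 CPM, subunits of ribonucleotide reductase. The call of Rrm1 was lost without DMEM replicate 3, without DIAM replicate 4 and with quantile normalization. Bub3 did not pass (56.1 ± 2.46 CPM in DMEM and 55.2 ± 2.43 CPM in DIAM). Of 25 genes of D cyclins, CDK inhibitors and their partners 9 rose and 8 fell. Cdkn1c, the CDK inhibitor p57, had 2.65, 2.33, 1.17 and 5.29 CPM in DMEM and 192, 196, 178 and 185 CPM in DIAM (log2 fold change 6.03 ± 0.30). Cdkn2c (p18) rose from 13.2 ± 1.56 to 29.5 ± 2.63 CPM, as did Ccnd3, from 104 ± 11.4 to 206 ± 7.54 CPM, and Myc, from 14.2 ± 2.78 to 35 ± 2.42 CPM, while Trp53 fell from 60.0 ± 2.34 to 45.8 ± 1.4 CPM. Of 29 immediate early and MAP kinase feedback genes 16 rose and 5 fell. Dusp1, a phosphatase that turns off MAP kinases, rose from 43.3 ± 4.67 to 139 ± 15.9 CPM, Nr4a1 from 8.42 ± 1.36 to 33 ± 2.61 CPM, and Spry1 fell from 80.8 ± 8.14 to 21 ± 2.02 CPM.

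Many cytokine genes fell, while acute phase and complement genes mostly rose. Of 31 cytokine, chemokine and receptor genes 16 fell and 9 rose (median -0.52). Il4ra, a receptor chain for interleukins 4 and 13, had 373, 469, 353 and 347 CPM in DMEM and 92.6, 89.7, 104 and 105 CPM in DIAM (log2 fold change -1.98 ± 0.13), and Cxcl12, a chemokine of stromal cells, 4674, 4182, 4667 and 5704 CPM in DMEM and 2050.4, 2346, 2427 and 2461 CPM in DIAM (log2 fold change -1.05 ± 0.10). Il6ra rose from 14.7 ± 1.07 to 42.2 ± 1.47 CPM, and Osmr did not pass (289 ± 17.2 CPM in DMEM and 319 ± 13.9 CPM in DIAM). Of 17 tested acute phase genes 12 rose and 2 fell (median 2.73, or 0.76 by limma on log2(CPM + 5)). Serpina3n, a secreted protease inhibitor, had 147, 278, 141 and 176 CPM in DMEM and 5469, 5201, 6262 and 7603 CPM in DIAM (log2 fold change 5.05 ± 0.25), and Hp, haptoglobin, 1540.4, 1019, 1677 and 1709 CPM in DMEM and 5436, 5392, 5076 and 6633 CPM in DIAM (log2 fold change 1.92 ± 0.15). Lcn2, which binds bacterial iron carriers, rose from 2.91 ± 0.742 to 154 ± 24.2 CPM. Serpina3m rose from 0.0189 ± 0.0246 to 175 ± 37.3 CPM; Serpina3 genes are close copies, so reads may be split between them. Of 27 complement genes 14 rose and 4 fell. C7, a component of the membrane attack complex, had 0.576, 0.569, 0.464 and 0.742 CPM in DMEM and 247, 327, 342 and 399.9 CPM in DIAM (log2 fold change 9.12 ± 0.25), and C3, the central component, 339, 290.5, 129 and 495.5 CPM in DMEM and 2134, 2148, 1871 and 2868 CPM in DIAM (log2 fold change 2.85 ± 0.34). Cd59a, which protects cells from that complex, fell from 19.8 ± 0.414 to 14.4 ± 1.35 CPM, and C1s1 did not pass (475 ± 57.2 CPM in DMEM and 534 ± 29.3 CPM in DIAM). Of 28 interferon-stimulated genes 12 rose, 5 fell and 11 did not pass, with Ifi35 rising from 23.6 ± 1.68 to 35.1 ± 1.65 CPM and Irf1 falling from 18.5 ± 1.5 to 13.9 ± 1.79 CPM. Of 12 antigen presentation genes 6 rose and 1 fell, with H2-D1 rising from 204 ± 31.5 to 454 ± 25.6 CPM and Tap1 falling from 23.8 ± 1.78 to 18.6 ± 1.48 CPM. Of 31 nuclear receptors and coregulators 16 rose and 6 fell.

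The largest single changes took in genes of no list. Car3, a carbonic anhydrase of fat and muscle, had 0.34, 0.776, 0.342 and 0.742 CPM in DMEM and 315, 349.8, 220.0 and 308 CPM in DIAM (log2 fold change 9.07 ± 0.30). Cldn11, a tight junction protein, rose from 0.0444 ± 0.044 to 43 ± 8.96 CPM, and Adora1, an adenosine receptor that restrains lipolysis, from 0.0635 ± 0.0455 to 29.3 ± 3.95 CPM. For genes this low in DMEM the size of a fold change depends on few counts. Gas2, a cytoskeletal protein of growth-arrested cells, had 45.4, 37.5, 49.4 and 49.2 CPM in DMEM and 1.34, 1.36, 1.1 and 1.43 CPM in DIAM (log2 fold change -5.11 ± 0.17), and Scg2, a secretory granule protein, 258, 183, 440.4 and 473 CPM in DMEM and 8.38, 12.4, 10.4 and 10.1 CPM in DIAM (log2 fold change -5.03 ± 0.40). Slc5a7, the choline transporter of neurons, fell from 5.1 ± 0.851 to 0.051 ± 0.0559 CPM, and Grik1, a glutamate receptor, from 6.22 ± 1.15 to 0.114 ± 0.0743 CPM. By gain in share of reads Gsn, the actin-severing protein gelsolin, came first with 753, 722, 780.4 and 741 CPM in DMEM and 14141, 16827, 15619.8 and 14686 CPM in DIAM (log2 fold change 4.35 ± 0.12). Selenop, a selenium carrier, had 619, 586, 579 and 682 CPM in DMEM and 4858, 4809.8, 5094 and 4323 CPM in DIAM (log2 fold change 2.95 ± 0.08), and Gas6, a ligand of the AXL receptor, 3265, 3127, 2981 and 3665 CPM in DMEM and 6736, 7292, 7665 and 7480.2 CPM in DIAM (log2 fold change 1.16 ± 0.08). By loss Thbs1 came first, with 11269, 9388, 10461 and 10075 CPM in DMEM and 1714, 1628, 1648 and 1712 CPM in DIAM (log2 fold change -2.62 ± 0.13), and Sparc, a collagen-binding protein, had 8658, 8451, 9269 and 8355 CPM in DMEM and 4334, 4112, 4367 and 4807 CPM in DIAM (log2 fold change -0.98 ± 0.10). Both groups of each gene lay apart.

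Markers of other cells moved with the medium, and in bulk RNA fewer cells of a type and less RNA per cell cannot be told apart. The 6 tested of 10 adipocyte markers rose, at sums of 9.75 to 22.6 CPM in DMEM and 951 to 1362 CPM in DIAM; Lep, Cidea, Ucp1 and Pck1 were not tested. Of 12 fibroblast markers 8 rose and 3 fell, at sums of 3076 to 3299 CPM and 17242 to 19937 CPM, and most of the DIAM sum was Gsn. Cd34, a marker of adventitial progenitors, rose from 9.12 ± 4.32 to 71 ± 12.4 CPM. Leukocyte RNA was present in both media. Of 12 tested markers 6 fell and 1 rose, at sums of 1172 to 2554.5 CPM and 1283 to 1719 CPM. Most of it was Lyz2, lysozyme of macrophages, at 1395, 1992, 920.2 and 1359.6 CPM in DMEM and 902, 1199.7, 1127 and 1093 CPM in DIAM (log2 fold change -0.39 ± 0.26), which did not pass. Mrc1, the mannose receptor of macrophages, rose from 62.5 ± 27.1 to 197 ± 42.3 CPM, while Aif1 and Itgam, of the same cells, fell from 2.8 ± 1.67 to 0.25 ± 0.195 CPM and from 28.2 ± 10.7 to 12.4 ± 3.38 CPM. Cd163, a scavenger receptor that glucocorticoid is known to induce in macrophages, had 0.34, 0.0517, 0.244 and 0.431 CPM in DMEM and 21, 29, 26.3 and 24.8 CPM in DIAM (log2 fold change 6.54 ± 0.37), and Cd72, of B cells and macrophages, 11.5, 21.3, 12.1 and 15.4 CPM in DMEM and 0.233, 0.462, 0.685 and 0.468 CPM in DIAM (log2 fold change -5.03 ± 0.37). Of 12 endothelial markers 6 rose and 2 fell, at sums of 116 to 141 CPM and 150.1 to 232 CPM. Of 8 mesothelial markers 2 rose, at sums of 65.3 to 349.8 CPM and 208 to 689.8 CPM. Of 8 tested Schwann cell markers 3 rose and 1 fell, at sums of 29.4 to 133 CPM and 50.1 to 207 CPM. The part of these cells in the lipid, matrix, cytokine and complement results was not tested.

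Whether the response of KO cells differed from that of WT cells was asked with the interaction of genotype and medium; the 2 responses share no libraries. By edgeR's quasi-likelihood test no gene passed, with 2255 of 14217 genes (15.9%) under 0.05 before adjustment, a range in which 711 would fall with no difference at all. DESeq2 on the same counts called 225, limma on log2(CPM + 1) called 0, and the authors' deposited table gives 234 genes at an adjusted p under 0.05. The smallest p was that of Kif23, a kinesin of the last step of division. In KO cells it had 5.06 ± 0.735 CPM in DMEM and 0.687 ± 0.235 CPM in DIAM. WT cells had 5.08 ± 1.18 CPM in DMEM and 3.11 ± 0.775 CPM in DIAM. Kif23 was thus low in KO cells in DIAM, where the size of a fold change depends on few counts. Its log2 fold change was -2.88 in KO and -0.71 in WT cells, a difference of -2.17 ± 0.34 (SE; adjusted p = 0.156, edgeR; 9.34e-06, DESeq2). Acadm rose by 2.11 in KO and 1.44 in WT cells, a difference of 0.67 ± 0.14 (adjusted p = 0.171, edgeR). Hmga2, a chromatin protein of fetal and fat tissue, rose by 1.20 in KO and 2.22 in WT cells, and Zdhhc18, a palmitoyltransferase, had log2 fold changes of -0.47 in KO and 0.21 in WT cells. Over all genes the fold change was higher in KO cells in 7105 of 14217. Of the citric acid cycle and pentose phosphate list, 23 of 30 genes had an unadjusted interaction p under 0.05, and in all 30 the fold change was higher in KO cells (median 0.76 in KO and 0.49 in WT cells). The respiratory chain list had 21 of 41, with all 41 higher in KO cells (medians 0.47 and 0.27), and the mitosis list 24 of 49, with 48 lower (medians -1.16 and -0.72). Lipid droplet (11 of 18), fatty acid oxidation (16 of 29) and fatty acid synthesis genes (11 of 21) also exceeded the share over all genes. Lists of triglyceride assembly (9 of 17), proteases (13 of 30), insulin signalling (13 of 33) and collagens (10 of 29), among others, did so as well. The glucocorticoid list, with 9 of 33, also lay above that share. Below it lay the Krüppel-like factors with none of 13 and the contractile list with 1 of 30. By DESeq2 8 genes of the citric acid cycle and pentose phosphate list, 8 of fatty acid synthesis, 3 of lipid droplets and 4 of mitosis passed for the interaction. The authors' deposited table gives 8, 8, 3 and 6, while edgeR called none. Other lists also lay to one side: the fold change was higher in KO cells in 0 of 39 ribosomal protein genes (medians -0.13 in KO and 0.11 in WT cells), 0 of 12 leukocyte markers, 6 of 6 adipocyte markers, 9 of 10 smooth muscle markers and 27 of 30 contractile genes. Their part in the differences between genotypes was not tested. Genes of 1 list are not independent, and no list was tested.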

How the data were processed

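Total RNA of cultured aortic smooth muscle cells was sequenced after ribosomal RNA depletion with an unstranded TruSeq kit, per the labels' protocols. The submitters' processing notes name FastQC, Salmon 1.9.0, DESeq2 1.46.0, R 4.4.2 and the mouse build GRCm39, without their settings. The labels call the deposited values TPM, but they sum to 37221313 to 47626242 per library, so they were treated as estimated counts deposited by the authors and rounded to whole numbers. The deposited table also gives the authors' adjusted p-values and log2 fold changes for WT medium and the interaction; of these only the count of the interaction's adjusted p-values is given. The authors' mean signal per gene over all libraries, a normalized value in the deposited table, was used only to check the scale. All 16 libraries carry 1 batch label.

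Genes with at least 1 CPM in at least 4 of 16 libraries (14217 of 20581) were fitted with edgeR 4.0.16 (R 4.3.3; TMM scaling, robust quasi-likelihood, 4 group means, 12 residual degrees of freedom), two-sided, with Benjamini-Hochberg adjustment over all genes tested. Fitting also used limma 3.58.1 and DESeq2 1.42.0 as alternatives, and the edgeR script was tested on simulated data. The SE was taken from the fold change and the F statistic and is poor for genes close to 0 in either medium. KO libraries held 37221313 to 42388720 counts.

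The members and gene lists were chosen with earlier results of these data known, some genes stand in more than 1 list, and no list was tested. Genes were named by a rule: the 12 largest rises and falls with at least 5 CPM in a group and no overlap, predicted symbols left out; the 8 largest gains and losses in CPM; in each list up to 5 members of smallest p, up to 2 that moved against its majority and the most abundant that did not pass; the 8 smallest interaction p-values; and Arg1, Arg2 and Epor. Cell type markers form a list of their own, and some genes that the rule names are not reported here. Named outside the rule, after their values were seen, were Abca1, C3, Cd163, Cdc20, Cdk1, Cebpa, Col6a1, Col6a3, Cpt1a, Eln, Hsd11b1, Insr, Irs1, Irs2, Kif11, Nr3c1, Rgs5, Top2a, Xist and mt-Nd6.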

Additional observations from a re-analysis of the deposited data

Results flagged for a closer look

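Among 474 sets of 4 KO libraries (each named gene in each medium), 22 held a library whose gap to the nearest other, divided by the range of the 4, was above Dixon's 95% critical value. Chance flags about 1 in 20 such sets. DIAM replicate 1 stood apart in Paox at 17.9 CPM against 14.7 to 15.3 CPM in the other 3 and in Rrm2 at 56.7 CPM against 42 to 44.1 CPM in the other 3. DIAM replicate 3 stood apart in Dgat1 at 46.9 CPM against 60.0 to 61.2 CPM in the other 3, Lipe at 141 CPM against 189 to 194 CPM in the other 3 and in Pparg at 60.6 CPM against 79.6 to 82 CPM in the other 3. DIAM replicate 3 stood apart also in Rgs2 at 37.8 CPM against 49.9 to 51.7 CPM in the other 3. This library was the lowest in DIAM in Fabp4, Cd36, Adipoq, Cfd, Pnpla2, Fasn and Scd1 too, though not in Ebf1 or Nampt. Its flags in lipid genes are therefore not independent. DIAM replicate 4 stood apart in C1s1 at 578 CPM against 516 to 524 CPM in the other 3, Ccnd3 at 195 CPM against 208 to 211 CPM in the other 3 and in Grb10 at 323 CPM against 279 to 286 CPM in the other 3. DIAM replicate 4 stood apart also in Igfbp2 at 107 CPM against 135 to 139.6 CPM in the other 3, Sfrp1 at 1564 CPM against 1329 to 1364 CPM in the other 3 and in Trp53 at 47.9 CPM against 45 to 45.1 CPM in the other 3. DMEM replicate 1 stood apart in Hspa8 at 1709 CPM against 1619.5 to 1623 CPM in the other 3 and in Kif23 at 6.15 CPM against 4.57 to 4.78 CPM in the other 3. DMEM replicate 2 stood apart in Abca8a at 14.7 CPM against 7.13 to 7.9 CPM in the other 3, Aif1 at 5.27 CPM against 1.78 to 2.27 CPM in the other 3 and in Fabp4 at 50.0 CPM against 78 to 82.3 CPM in the other 3. DMEM replicate 2 stood apart also in Pmvk at 17 CPM against 21.6 to 21.9 CPM in the other 3. DMEM replicate 3 stood apart in Bscl2 at 59.6 CPM against 52.7 to 53.7 CPM in the other 3. DMEM replicate 4 stood apart in C1s1 at 560.3 CPM against 439 to 453 CPM in the other 3, Fam107a at 0.239 CPM against 0.0488 to 0.0786 CPM in the other 3 and in Gpd1 at 1.94 CPM against 0.983 to 1.07 CPM in the other 3.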

How the results depend on the processing

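Genes changed by the medium numbered 8623, and between 7270 (filter at 5 CPM in 4 libraries) and 9199 (no filter) under the alternatives: DESeq2, median-ratio scaling, quantile-normalized limma, limma with pseudocounts of 0.1, 1 and 5, only the 8 KO libraries, a replicate block, and each KO library left out in turn (8058 to 8306). Between 82.5% and 99.4% of the original calls were kept; the lowest share came with the stricter filter, which tests fewer genes. Quantile normalization moved the median log2 fold change by -0.07 and gave 3662 risen and 5107 fallen genes. With the 5 CPM filter the median of the collagen list turned to -0.71, since low chains dropped out. Another 28 of 792 list medians under an alternative moved by more than the spread between replicates with no change of sign: 11 with a pseudocount of 5, which shrinks low genes (acute phase 0.76, mitosis -0.60, adipogenic factors 0.80), 5 with quantile normalization, 4 with the 5 CPM filter, 3 with a pseudocount of 1 and 5 with 1 library left out. The number of changed scavenger receptor genes, 8, ranged from 5 to 7 when 1 library was left out. The interaction gave 0 genes by edgeR, 225 by DESeq2, 1 by limma on log2(CPM + 5) and 234 in the authors' deposited table, an alternative chosen after seeing the data; it ranged from 0 to 1 with 1 library left out, and the cause was not tested. Deviations of same-numbered KO libraries correlated at 0.32, 0.01, 0.15 and 0.28. The numbers were not used as pairs because 1 of the 4 is not above 0.1 and the labels tie no numbers together, although 0.32 and 0.28 are the highest of all 16 combinations; DMEM replicate 2 correlated best with DIAM replicate 4. The replicate block gave 8775 changed genes and 0 for the interaction. Of the named genes, 7 that did not pass without the block passed with it (Adipor1, C1s1, Col6a2, Igfbp4, Myh11, Osmr and Plin3), and Spp1 lost its call. The alternative without further scaling was not run because the values were not already scaled. Genes under 1 CPM were left out by choice and were tested in the fit with no filter.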
